A study of Danio rerio with 18 samples.

Results

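The regions described here are enhancers that the adult zebrafish brain shares with the heart, as far as called regions can show sharing. They are the rows of the brain typical-enhancer list that overlap, by 1 bp or more, a region of either class in the 1-year heart list and in the 10-month heart list, and that do not touch any intestine or testis region. Of 12571 brain typical enhancers, 581 met this rule (4.62%), out of 66306 regions in the 10 lists of the series. They were chosen by the overlap of called regions, so presence in the hearts and absence from intestine and testis are how the regions were chosen and not findings.

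All fish were wild-type AB males. Brain regions came from fish aged 10 months and are set against hearts and intestines from fish aged 1 year and hearts and testes from fish aged 10 months. Histone H3 lysine 27 acetylation (H3K27ac) was profiled by chromatin immunoprecipitation and sequencing, with 1 H3K27ac and 1 input library for hearts of 10 months and 2 of each for the others. A library pooled 12 brains, 20 hearts, 5 intestines or 8 testes, of whole organs, and fragments averaged 200 bp in the 1-year samples and 175 bp in the 10-month samples. Age, fragment size and number of libraries therefore cannot be told apart between the heart lists. Each tissue and age has 1 list of super-enhancers and 1 of typical enhancers with no value per replicate, and the read depth behind them is unknown, so no test between tissues was possible. The 95% intervals below are over regions and do not cover differences between fish. In whole organs, a region acetylated in few cells and one weakly acetylated in many cannot be told apart.

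Acetylation of H3K27 is laid down by CBP-family acetyltransferases at enhancers and promoters in use, and it is removed when they fall silent. Enhancers are stretches of DNA that bind transcription factors and raise the output of genes that can lie far away, and most differ in use between organs. A super-enhancer is a dense cluster of such sites with a large total of the mark, often beside genes that define a cell's identity, and the regions left below that threshold are called typical enhancers. Brain and heart both hold excitable cells, vessels, blood and connective tissue. Gene positions of the build of the lists, Zv9, were not used here, so regions are given by coordinates and are not divided into promoters and distal sites.

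Most brain typical enhancers that were present in the heart were also present elsewhere. A 1-year heart region was met by 7059 brain typical enhancers (56.2%), a 10-month one by 6263 (49.8%), and both by 5832 (46.4%). Of these 5832, 3138 also touched both the intestine and the testis list, 1940 the intestine but not the testis, and 173 the testis but not the intestine. The 581 regions free of both were 9.96% of the regions in both hearts. For comparison, 4061 brain typical enhancers touched none of the other 4 lists. The intestine list was larger, with 15042 regions over 197 Mb against 10015 over 60.5 Mb for testis. The share of all brain typical enhancers that met either list was not computed. These counts therefore do not show which tissue the shared regions resemble more.

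As listed, the regions shared by brain and heart were mostly short, with a minority of long clusters, but this rests on brain rows that share a name. Their median length was 4.20 kb (95% interval 3.60 to 5.00), against 3.40 kb for all brain typical enhancers, 5.60 kb for those in both hearts that were also in intestine or testis, and 2.40 kb for those of the brain list only. Lengths ran from 0.599 to 90.0 kb with quartiles of 2.0 and 13.2 kb, and together the regions covered 5.69 Mb. A name was shared with another brain row by 476 of the 581 (81.9%), against 84.0% of all brain typical enhancers. Rows that share a name are still separate regions, since regions of the brain list lie at least 801 bp apart. With 1 row kept per name over the whole brain list, 163 regions had a median of 14.6 kb with 73.0% joined. The 220 regions whose deposited signal matches their own length had a median of 9.60 kb. A signal copied from a row of equal length also matches. Neither restriction was applied to the comparison groups above, so these medians have no like comparison. Length bears on the rule in opposite ways, since a long region meets the heart lists more easily and escapes the intestine and testis lists less easily. In the class under 2 kb 35.7% of brain typical enhancers were in both hearts and 11.4% of those were free of intestine and testis. Among regions of 20 kb or more the shares were 67.6% and 6.80%. The net share that met the rule stayed between 4.08% (under 2 kb) and 5.51% (5 to 10 kb) over the 5 length classes.

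**Figure D1:**
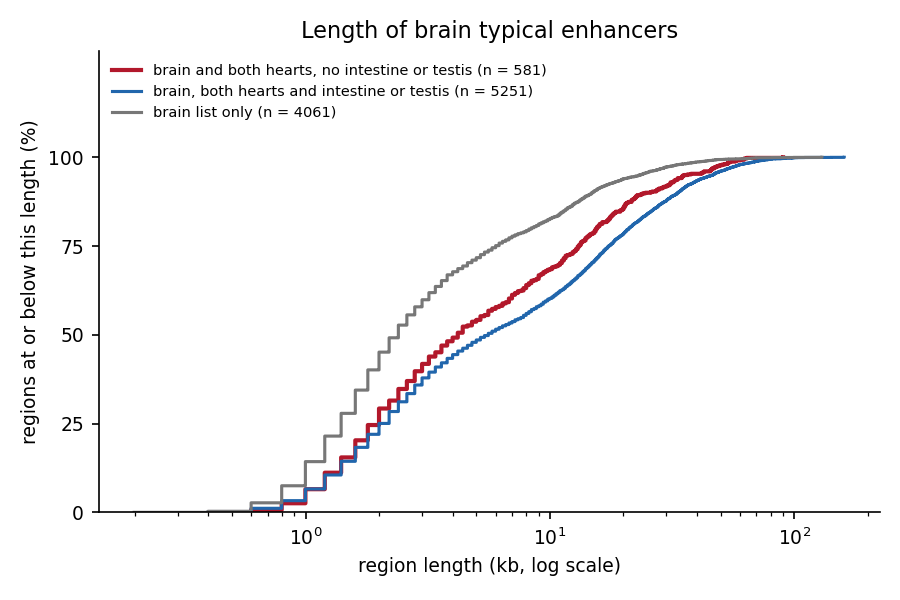
Cumulative percentage of brain typical enhancers (y axis) at or below a given length in kb (x axis, log scale) for the 581 regions shared by brain and both hearts only, the 5251 also in intestine or testis, and the 4061 of the brain list only. At the median and the upper quartile the curve of the 581 regions lies between the other curves, with a median of 4.20 kb against 5.60 and 2.40 kb.

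Region names in the lists give the number of acetylated loci that were joined into a region. A single locus was named for 320 of the 581 regions (55.1%), and 244 (42.0%, 37.9 to 46.1) were joined from 2 or more loci, against 37.9% of all brain typical enhancers. The share was 47.6% for those in both hearts and also in intestine or testis, and 25.7% for those of the brain list only, so the regions described here lay between these groups. Of the joined regions, 118 held 2 loci, 51 held 3, 33 held 4, and 42 held 5 or more, with 11 as the most. The remaining 17 names were a number only and state no locus count. Single-locus regions had a median of 2.0 kb and reached 18.2 kb, and joined regions had a median of 15.1 kb.

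Sharing was often partial. The heart list at 1 year covered a median of 87.5% (82.8 to 93.3) of a region's length and the heart list at 10 months 62.5% (55.9 to 66.6). Brain typical enhancers in both hearts that were also in intestine or testis had medians of 100% at 1 year and 81.0% at 10 months. Regions covered from end to end numbered 243 for the heart at 1 year (41.8%), against 51.5% of that group, and 158 for the heart at 10 months (27.2%), against 34.8%. The base pairs common to brain and both hearts made up a median of 55.5% (48.3 to 61.1) of a region, 1.60 kb in length. Summed over all 581 regions, only 25.5% of their base pairs, 1.45 of 5.69 Mb, lay in all 3 lists. By base pairs, then, the name of shared enhancers fits a minor part of the sequence these regions span.

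Regions of 1 locus and joined regions differed in this, and joined regions were also longer (median 15.1 kb against 2.0 kb). The part common to the 3 lists, here and above, was not computed for other brain typical enhancers in both hearts. The values are therefore not shown to be particular to these regions. At the median 82.6% of a single-locus region was common to the 3 lists, and 119 of 320 (37.2%) were common over their whole length. For joined regions the median was 13.2%, and 13 of 244 (5.33%) were common throughout. In 17 regions the hearts covered different pieces of the brain region and no base pair was common to all 3 lists; 16 of these were joined, and they were 4.20 to 62.4 kb long.

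**Figure D2:**
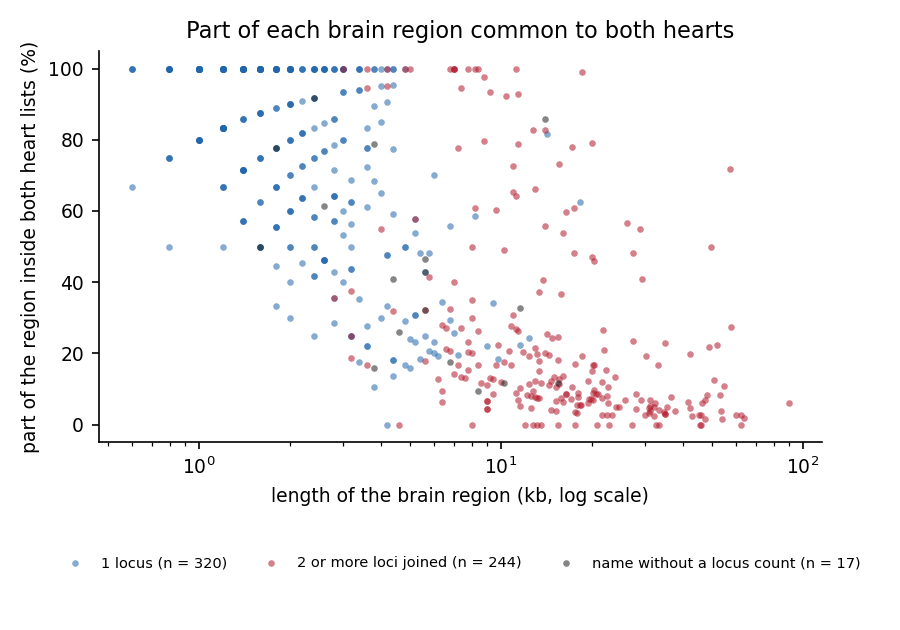
Percentage of each of the 581 brain regions that lies inside both heart lists (y axis) against its length in kb (x axis, log scale), coloured by the number of loci in its name. Regions of 1 locus gather at the upper left (median 82.6%) and joined regions at the lower right (median 13.2%).

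The longest regions show this plainly. The longest of all, on chromosome 1 from 32118801 to 32208799 (90.0 kb, 11 loci), was met by 5.40 kb of the heart at 1 year and 8.60 kb of the heart at 10 months, and both hearts had their own short region starting at 32138601. On chromosome 15 from 13332801 to 13396599 (63.8 kb, 8 loci), the heart regions were single loci of 2.0 kb at 1 year and 1.80 kb at 10 months, with 1.20 kb common to all lists. The next, on chromosome 9 from 21126401 to 21188799 (62.4 kb, 9 loci), had a heart locus of 1.40 kb at 1 year and its largest overlap at 10 months with a locus of 1.80 kb elsewhere, so that no base pair was common to all lists. In each of these, long brain clusters held short heart loci.

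Several other long regions had the same form. On chromosome 8 from 29955601 to 30009599 (54.0 kb, 5 loci) the hearts of both ages had the identical locus of 0.799 kb, from 29970001 to 29970799. On chromosome 7 from 65176601 to 65238799 (62.2 kb) 1.60 kb was common to the 3 lists, on chromosome 18 from 2589201 to 2642799 (53.6 kb) 2.0 kb, and on chromosome 9 from 18885801 to 18940599 (54.8 kb) 6.0 kb. Among the 10 longest the hearts differed most in coverage on chromosome 7 from 76953601 to 77011399 (57.8 kb), with 71.6% at 1 year and 27.3% at 10 months. On chromosome 23 from 30702401 to 30762599 (60.2 kb) coverage was 34.9% at 1 year and 2.66% at 10 months. Only 1 of the 10 longest regions, on chromosome 16 and described below, was common to the 3 lists over more than 50% of its length.

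The heart regions on the other side of the overlap were longer at 1 year than at 10 months. The heart region with the largest overlap had a median of 11.2 kb (8.80 to 13.2) at 1 year and 3.80 kb (3.0 to 5.20) at 10 months. It was longer than the brain region in 343 of 581 cases at 1 year and in 251 at 10 months. In the lists as a whole the 1-year heart covered 213 Mb and the 10-month heart 133 Mb. Coverage of the brain region was larger at 1 year for 272 regions, larger at 10 months for 120 and equal for 189. Region edges matched the brain exactly in 12 cases at each age. The 581 brain regions met 585 different 1-year heart regions and 597 different 10-month heart regions, and no heart region was met by more than 2 of them.

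Some of the heart regions that met the brain regions reached an intestine or testis region further along. At 1 year 199 of the 581 brain regions met a heart region that itself overlapped an intestine region, and 106 met one that overlapped a testis region. At 10 months these numbers were 131 and 65. For 351 brain regions (60.4%) the heart regions of both ages were free of intestine and testis over their whole length. These counts were not computed for other brain typical enhancers in both hearts. They are therefore not shown to be particular to these regions.

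In the heart these brain regions were mostly typical enhancers as well. Both hearts held only typical enhancers at 508 of 581 (87.4%). A 1-year heart super-enhancer was met by 60 (10.3%, 7.97 to 13.1), against 18.6% of all brain typical enhancers in both hearts. For the heart at 10 months the count was 37 (6.37%, 4.52 to 8.67), against 12.9%. Both hearts had a super-enhancer at 24 regions (4.13%), against 9.77%, and either heart at 73 (12.6%), against 21.7%. Each comparison percentage covers all 5832 brain typical enhancers in both hearts, the 581 included. Rows of the 10-month lists often share a name and 1 copied signal, and a signal matched the row's own length for 41.5% of brain rows and 28.7% of 10-month heart rows, against 100% of 1-year heart rows. Whether such rows got their class from the copied value is not given in the labels, so brain and 10-month classes are as deposited. Class was not part of the rule, but freedom from intestine and testis was, and only 1 of 850 super-enhancers in the 1-year heart touched no intestine or testis region. At 10 months 6 of 749 did so.

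The gap lay among brain regions of 5 kb or more. Under 2 kb, 27 of 170 regions (15.9%, 10.7 to 22.3) met a 1-year heart super-enhancer, against 13.3% of the regions of that length in both hearts that were also in intestine or testis. At 2 to 5 kb the shares were 13.1% and 15.8%, and at 5 to 10 kb 9.64% and 20.8%. From 10 to 20 kb they were 2.97% (3 of 101) and 20.3%, and at 20 kb or more 3.66% (3 of 82, 0.761 to 10.3) and 29.5% (331 of 1123). So the brain regions inside heart super-enhancers were short pieces, with a median of 2.40 kb against 4.80 kb for regions that were typical in both hearts. The rule bears on this, since only 1 of 850 1-year heart super-enhancers touched no intestine or testis region. A long brain region inside one escapes the intestine and testis lists less easily than a short one. The fall with length is therefore a description and no separate finding.

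**Figure D3:**
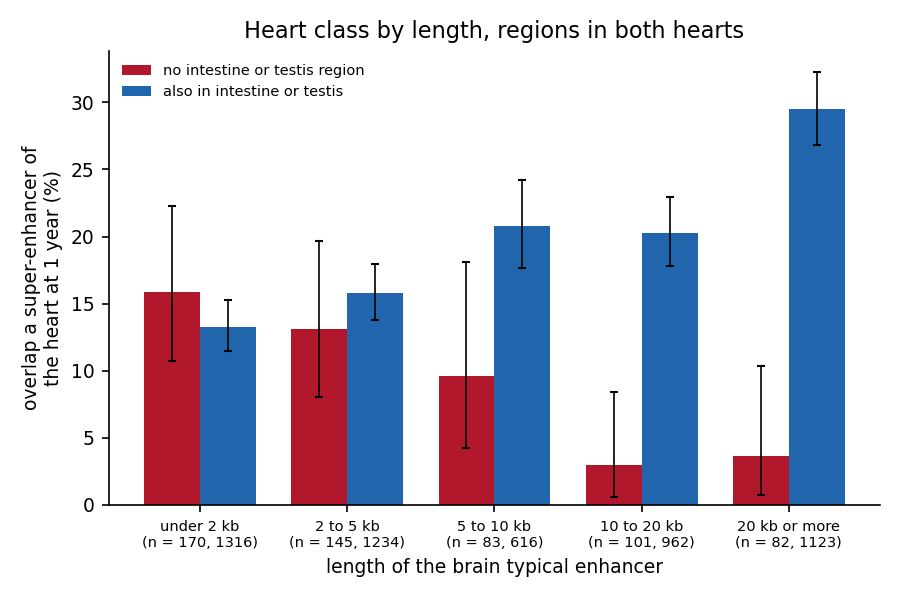
Percentage of brain typical enhancers that overlap a 1-year heart super-enhancer (y axis), by length class of the brain region (x axis), for regions free of intestine and testis and for those also in intestine or testis. Bars are percentages with exact 95% intervals over regions, and in the class of 20 kb or more they stand at 3.66% and 29.5%. The exclusion of intestine and testis regions, which most heart super-enhancers touch, bears on the first group.

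Among the 24 regions with a super-enhancer in both hearts, those with the most common base pairs were named. On chromosome 8 from 30590001 to 30604199, a single locus of 14.2 kb with 0.676 signal units per bp, 11.6 kb was common to the 3 lists, inside heart super-enhancers of 35.8 kb at 1 year and 35.6 kb at 10 months. Chromosome 10 from 4144601 to 4152999 (8.40 kb, 2 loci) lay wholly within heart super-enhancers of 105 kb at 1 year and 65.4 kb at 10 months. Chromosome 17 from 26617201 to 26621599 and chromosome 22 from 19227601 to 19231999, each 4.40 kb and of 1 locus, were also covered wholly. At the chromosome 22 locus the heart super-enhancers were 123 kb at 1 year and 112 kb at 10 months, with 15 loci each, so the brain region was a small part of a long heart cluster. Chromosome 19 from 28383601 to 28387599 (4.0 kb) had 3.40 kb in common. In these 5 cases at least one of the heart super-enhancers touched an intestine or testis region elsewhere along its length.

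The exception was the chromosome 16 locus. The brain region from 46828001 to 46885399 (57.4 kb, 11 loci, 0.352 signal units per bp) lay wholly inside a 1-year heart super-enhancer that joined 45 loci from 46736001 to 47004599 (269 kb). This was the 1 super-enhancer of 850 that touched no intestine or testis region. At 10 months the heart had a super-enhancer of 57.6 kb there, from 46798801 to 46856399 with 8 loci, and a typical enhancer of 23.8 kb from 46872601 to 46896399, and these covered 71.8% of the brain region. The brain had a super-enhancer on either side, from 46675001 to 46813999 (139 kb, 20 loci), 14.0 kb away, and from 46914201 to 47004799 (90.6 kb, 13 loci). The intestine list was empty for 492 kb around the region, from 46652799 to 47145201, and the testis list for 508 kb, from 46621199 to 47129601. Only 1 other of the 351 regions with free heart counterparts met any heart super-enhancer, chromosome 7 from 33541401 to 33555999 (14.6 kb), at 10 months; it was singled out after its values were seen.

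**Figure D4:**
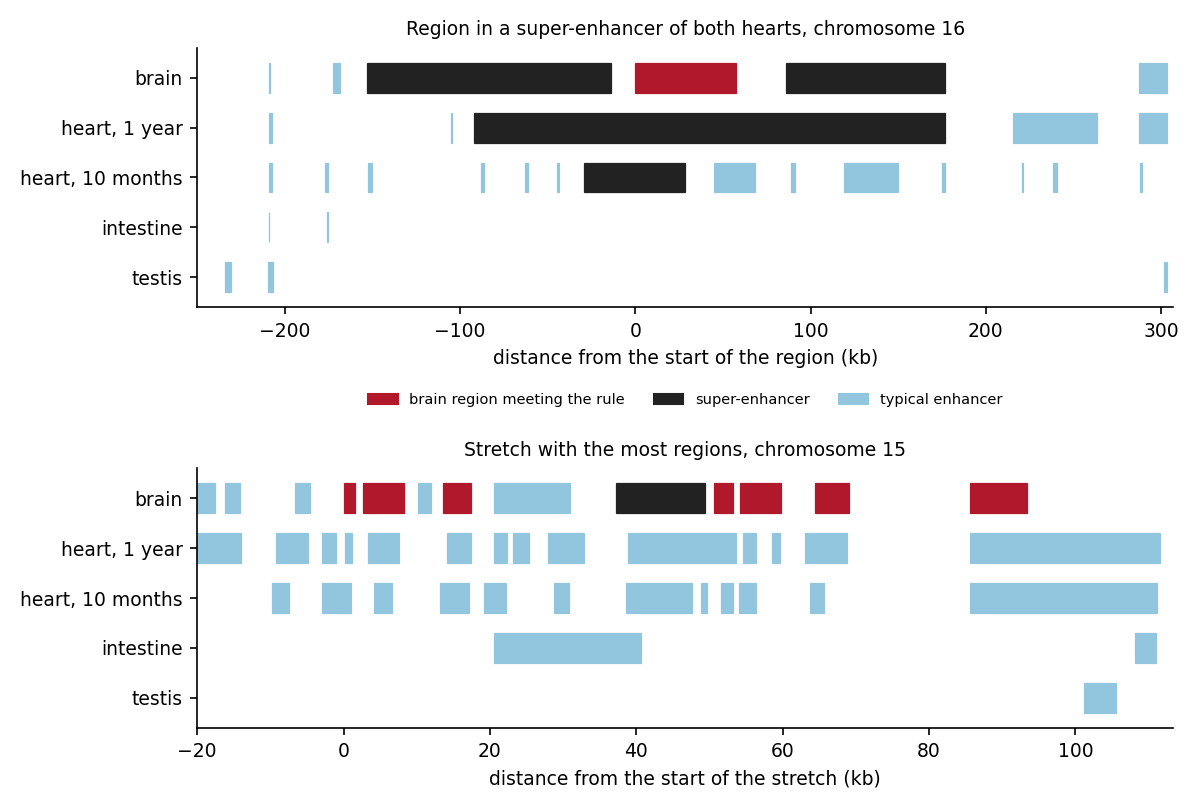
Called regions of the 5 lists (rows) along the chromosome 16 locus (upper panel) and the chromosome 15 stretch (lower panel); the x axis is the distance in kb from the start of the chromosome 16 region or of the stretch, and boxes are to scale apart from a thin outline. In the upper panel the brain region of 57.4 kb lies inside the 269 kb super-enhancer of the 1-year heart with no intestine or testis box near it; in the lower panel 7 brain regions lie within 93.4 kb.

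Acetylation strength of the brain regions was close to that of brain typical enhancers in general. Brain rows that share a name carry 1 copied signal, so a signal was used only where, divided by the length of its own region, it gives a value of exactly 4 decimals. A signal copied from a row of equal length also passes, so a match does not show that the signal is the row's own. For example, matching regions of 0.999 kb on chromosomes 5 and 13 both carried a signal of 548.851. That held for 220 of the 581 regions (37.9%), against 38.7% of all brain typical enhancers. Their median was 0.453 signal units per bp (0.429 to 0.476), against 0.464 for all brain typical enhancers with a matching signal, 0.452 for those in both hearts and also in intestine or testis, and 0.493 for those of the brain list only. Values ran from 0.249 to 1.20. Signal per bp was higher in short regions, with medians of 0.536 under 2 kb and 0.368 at 20 kb or more, against 0.567 and 0.391 for all brain typical enhancers of those lengths. Between these classes the medians were 0.517 against 0.522 at 2 to 5 kb and 0.470 against 0.488 at 5 to 10 kb. At 10 to 20 kb the order was the other way, 0.434 against 0.417. In the heart at 1 year, where every row has a matching signal, the heart regions met had a median of 0.439 signal units per bp (0.426 to 0.447), against 0.483 for the heart regions met by brain enhancers also in intestine or testis. These heart values were not matched for length. They are averages over whole heart regions, of which the overlap with the brain region filled a median of 44.4%, and do not measure the shared part. Signals of different lists share no stated scale, so brain and heart values are not compared with each other.

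The region with the highest brain signal per bp was on chromosome 1 from 47259801 to 47266599 (6.80 kb), with 1.20 signal units per bp, 1.00 kb from a brain super-enhancer. The next was chromosome 3 from 62556601 to 62557799 (1.20 kb) with 1.08 signal units per bp, where both hearts had the same locus from 62556801 to 62557799. Then came chromosome 20 from 26036401 to 26038799 (0.873 signal units per bp), chromosome 18 from 49824801 to 49834199 (0.846), chromosome 12 from 36358201 to 36372199 (0.824) and chromosome 2 from 45935401 to 45941799 (0.814). Very short regions closed this group, chromosome 7 from 10193001 to 10193599 (0.776 signal units per bp) and chromosome 20 from 37336201 to 37336799 (0.758), each 0.599 kb. Since a match does not exclude a copied signal, these ranks are as deposited. Of these 8 regions, 7 were typical in both hearts, and the chromosome 12 region met a super-enhancer of the heart at 10 months (99.2 kb, 12 loci).

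Over all lengths, the median distance to brain super-enhancers was close to that of all brain typical enhancers. The median distance to heart super-enhancers was shorter than for brain-only regions. The median distance between nearest edges was 624 kb (515 to 748) to a brain super-enhancer, against 628 kb for all brain typical enhancers and 653 kb for those of the brain list only. To a 1-year heart super-enhancer it was 417 kb (344 to 489), against 479 and 655 kb, and to a 10-month one 536 kb (443 to 602), against 624 and 847 kb. Brain typical enhancers in both hearts and also in intestine or testis lay closer still, at 323 kb from a 1-year and 466 kb from a 10-month heart super-enhancer. By the rules, regions shared with the heart touch a heart region and brain-only regions cannot overlap a heart super-enhancer, so this order is a description. The 1-year heart distance also depended on length. Under 2 kb the median was 383 kb, against 611 kb for all brain typical enhancers of that length. At 2 to 5 kb it was 323 against 473 kb, and at 5 to 10 kb 344 against 409 kb. In long regions the order was reversed, with 444 against 415 kb at 10 to 20 kb and 524 against 354 kb at 20 kb or more. The brain distance varied by class as well, in both directions. It was 767 against 747 kb under 2 kb, 590 against 630 kb at 2 to 5 kb and 363 against 524 kb at 5 to 10 kb. At 10 to 20 kb it was 768 against 558 kb, and at 20 kb or more 403 against 509 kb. No intervals were computed for these class medians. A heart super-enhancer was nearer than a brain one for 381 of the 581 (65.6%), against 62.4% of all brain typical enhancers. The heart distance was the smaller over both heart lists, with 850 super-enhancers at 1 year and 749 at 10 months. The brain had 664, and no brain typical enhancer overlapped any of them. The share is therefore to be read only against that of all brain typical enhancers.

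Within 100 kb of a brain super-enhancer lay 84 regions (14.5%, 11.7 to 17.6), against 13.7% of all brain typical enhancers. For the heart at 1 year the count was 140 (24.1%, 20.7 to 27.8), against 21.4%, and for the heart at 10 months 117 (20.1%, 16.9 to 23.6), against 17.1%. Far regions were fewer for the hearts than among all brain typical enhancers. More than 1 Mb from a 1-year heart super-enhancer lay 131 (22.5%, 19.2 to 26.2), against 30.1%, and from a 10-month one 174 (29.9%, 26.2 to 33.9), against 37.3%. Brain typical enhancers in both hearts and also in intestine or testis had 25.9% and 32.1% that far, inside these intervals. Within 100 kb that group had more, 32.3% at 1 year and 26.6% at 10 months. Neither trait was therefore particular to the regions described here. For brain super-enhancers 204 regions (35.1%) were beyond 1 Mb, against 36.4%. The nearest brain super-enhancer was 1 of 320 different ones, out of 664, and served at most 8 regions.

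**Figure D5:**
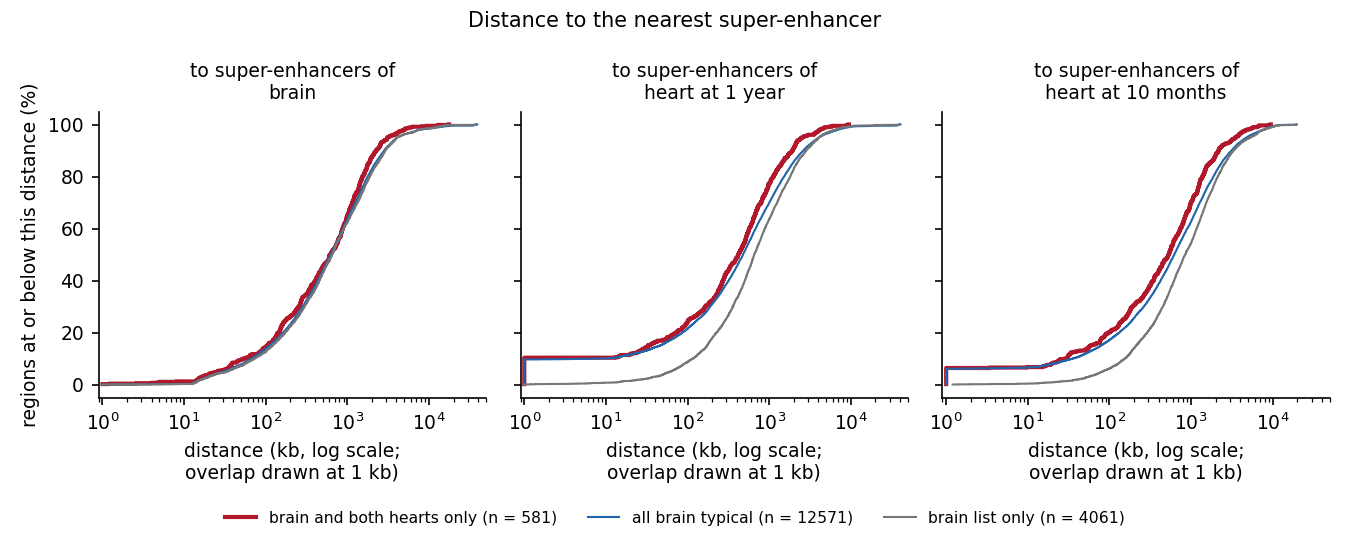
Cumulative percentage of regions (y axis) within a given distance in kb (x axis, log scale, overlaps drawn at 1 kb) of the nearest super-enhancer of brain, heart at 1 year and heart at 10 months, for the 581 regions, all 12571 brain typical enhancers and the 4061 of the brain list only. The curves nearly coincide for brain (medians 624, 628 and 653 kb) and separate for the heart at 1 year (417, 479 and 655 kb).

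The regions nearest to a brain super-enhancer were all named by a number only. After the chromosome 1 region above came chromosome 15 from 20414601 to 20417199 (2.60 kb) at 1.20 kb, chromosome 20 from 28834001 to 28845599 (11.6 kb) at 2.60 kb and chromosome 14 from 23189001 to 23204399 (15.4 kb) at 4.0 kb. Of the 22 regions within 20 kb of a brain super-enhancer 9 had such names, of 17 in all, and without them the median distance was 661 kb. At the other end, chromosome 7 from 10193001 to 10193599 lay 5015 kb from any brain or heart super-enhancer, and chromosome 20 from 54875001 to 54877999 (3.0 kb) lay 4551 kb away. Neighbouring loci on chromosome 4, from 27329601 to 27331199 (1.60 kb) and from 27237801 to 27240799 (3.0 kb), were 4360 and 4268 kb away. All 4 far regions were single loci, typical in both hearts, and common to the 3 lists over 80.0% to 100% of their length.

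All 25 chromosomes carried such regions, from 9 on chromosome 25 to 38 on chromosome 7, with a median of 25. As a share of a chromosome's brain typical enhancers they ran from 2.17% on chromosome 3 (12 of 552, 1.13 to 3.77) to 6.59% on chromosome 18 (33 of 501, 4.58 to 9.13), around 4.62% for the genome. Chromosomes 17 (6.49%), 9 (6.26%) and 12 (6.19%) followed chromosome 18, and chromosomes 25 (2.42%) and 6 (3.04%) were next to chromosome 3 at the low end. On 23 of 25 chromosomes the exact interval held the genome value, and chromosomes 3 and 25 were below it. No allowance was made for 25 separate intervals, some of which can miss the genome value by counting alone. For chromosome 25, with 9 regions, the upper limit was 4.54%. As a share of the regions in both hearts the values were 4.46% on chromosome 3 and 5.52% on chromosome 25. These count the same 12 and 9 regions and are not separate evidence. Per 10 Mb the counts ran from 1.90 on chromosome 3 to 6.62 on chromosome 18, with lengths taken as the highest end in any list.

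Most of the regions had no other region of the set within 100 kb, though other brain typical enhancers lay nearer. The median distance to the nearest other region of the set was 468 kb, and 430 of 581 had none within 100 kb. To the nearest other brain typical enhancer the median was 24.4 kb. The same spacing was not computed for a set of other brain typical enhancers. Whether these regions are more or less grouped than such a set was not tested. The other 151 fell into 68 stretches of neighbours less than 100 kb apart, of which 59 were pairs. The stretch with the most, 7, was on chromosome 15 from 20364001 to 20457399 (93.4 kb), and the next, with 5, was on chromosome 5 from 27931401 to 28149199 (218 kb). Of the 7 regions on chromosome 15, 6 had number-only names, so the number of joined loci in them is not stated. Some of these lay only a short gap apart, such as 20364001 to 20365599 and 20366601 to 20372199. The count of 7 therefore depends on such rows being listed separately.

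At the chromosome 15 stretch every brain region of the set met a typical enhancer in both hearts. The largest 4 were from 20449601 to 20457399 (7.80 kb, 3 loci), wholly common to the 3 lists, from 20366601 to 20372199 (5.60 kb, 42.8% common), from 20418201 to 20423799 (5.60 kb, 32.1%) and from 20428401 to 20432999 (4.60 kb, 26.1%). A brain super-enhancer of 12.2 kb, from 20401201 to 20413399, lay among them. An intestine region of 20.0 kb, from 20384601 to 20404599, overlapped that super-enhancer and a brain typical enhancer beside it, and no intestine or testis region touched the 7.

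Some regions lay close to the edge of the rule on either side. An intestine or testis region came within 1 kb of 8 of the 581 and within 5 kb of 110, and the median distance was 23.6 kb to an intestine region and 48.4 kb to a testis region. Just inside was chromosome 15 from 40413801 to 40418199, with an intestine region 201 bp away. Just outside were chromosome 3 from 46623201 to 46625799, chromosome 16 from 25367001 to 25369599 and chromosome 23 from 26034401 to 26037399, each with 199 bp in the intestine list. In all, 330 brain typical enhancers in both hearts were left out with less than 1 kb inside intestine and testis regions together, and 166 with less than 10% of their length there. On the heart side the smallest overlap was 399 bp at either age, and 145 regions had less than 1 kb in at least one heart. A further 503 brain typical enhancers free of intestine and testis were in the heart at 1 year but not at 10 months, and 204 the other way round.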

How the data were processed

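The authors deposited 10 region lists, of super-enhancers and of typical enhancers, made from 18 libraries of 5 tissue and age sets. Tools named, with no role, per the submitters' processing notes are SICER 1.1, bedtools 2.24.0, SAMtools 0.1.8, Bowtie2 2.1.0 and CASAVA, with build Zv9. For the joining of loci, the class threshold, the use of input and the pooling of replicates, the method is not stated in the labels or headers. The deposited signal, named density per the file headers, is the authors' value for a region, with no stated scaling between lists. Depth is unknown.

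Lengths are end minus start, and printed starts count from 1. A signal matches its region when, divided by the length, it gives a value of exactly 4 decimals. One copied from a row of equal length matches too. Distances run between nearest edges. Shares carry exact Clopper-Pearson intervals and medians exact binomial intervals, which cover counting over regions only. No test was made, because no list has replicate values. Named regions are the longest 10, the 8 with the highest matching signal per bp, the 6 with the most common base pairs among those with a super-enhancer in both hearts, the 4 nearest to a brain super-enhancer, the 4 farthest from any, and the largest 4 of the fullest stretch. The members and the rules were chosen with earlier results of these data known. Overlaps and the interval of a median were tested on simulated data. Distances were compared there only as overlap or none, and intervals of shares were not tested. Alternative overlap rules, row choices, a signal threshold and distances between centres were tried. Python 3.11.15, numpy 2.4.6, pandas 2.3.3, scipy 1.17.1 and matplotlib 3.10.9 were used.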

Additional observations from a re-analysis of the deposited data

How the results depend on the processing

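Of 91 values recomputed under alternatives, 55 stayed within the interval of the reported value (for the number of regions, within 1.5 times). All 8 results did so with heart overlap of at least 50% of the shorter region (514 regions) and with no intestine or testis region within 5 kb (471 regions), and the 3 distances did so between centres. Requiring 50% of both regions left 72, with a median of 2.0 kb, 16.7% joined, 0% in super-enhancers of the heart at 1 year and 0% at 10 months, and distances of 841 kb to super-enhancers of brain, 553 kb to the heart at 1 year and 779 kb to the heart at 10 months; a short region cannot cover 50% of a long super-enhancer. Brain regions with a matching signal numbered 220, with a median of 9.60 kb and 54.1% joined. With 1 row per name there were 163, with 14.6 kb, 73.0% joined, 6.13% in super-enhancers of the heart at 1 year and 3.68% at 10 months, 426 kb to brain and 495 kb to 1-year heart super-enhancers. Leaving out the lowest 25% of each brain and heart list by signal left 293, with 6.80 kb, 51.9% joined, 486 kb to brain and 440.4 kb to 10-month heart super-enhancers. That signal was taken as deposited, so many brain and 10-month heart rows were kept or left out by a copied value. With the heart at 1 year alone there were 1084, with 3.40 kb and 3.41% in super-enhancers of the heart at 10 months; with the heart at 10 months alone 7.64% were in super-enhancers of the heart at 1 year. Excluding only at 50% overlap gave 5.80 kb and 48.9% joined. Heart regions free of intestine and testis, an alternative chosen after seeing the data like that without number-only names (564 regions, all 8 results within the interval), left 351, with 6.0 kb, 49.0% joined, 0.285% in super-enhancers of the heart at 1 year and 0.570% at 10 months, and 567 and 732 kb to them. Apart from the cases explained by construction, the cause was not tested. No paired analysis was possible because the lists hold no value per replicate, and for the same reason no replicate could be left out.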

Other observations

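The same overlap rule was applied to brain super-enhancers. Of 664, 23 (3.46%, 95% interval 2.21 to 5.15) met a region in both hearts and none in intestine or testis, a set chosen after the values were seen. Their median length was 77.2 kb, against 67.0 kb for all brain super-enhancers. The longest lay on chromosome 3 from 28200401 to 28367599 (167 kb, 27 loci), followed by chromosome 9 from 44320601 to 44471199 (151 kb, 27 loci) and chromosome 9 from 12175401 to 12316599 (141 kb, 16 loci), and all 3 met only typical enhancers in the hearts. A heart super-enhancer was met by 2 of the 23, and these were the brain super-enhancers on either side of the chromosome 16 region described above. The one from 46675001 to 46813999 met a super-enhancer of both hearts and the one from 46914201 to 47004799 met that of the heart at 1 year. Of all brain super-enhancers, 29.2% met a 1-year heart super-enhancer and 22.9% a 10-month one. The exclusion of intestine and testis regions bears on the count of 2, as it does for the typical enhancers.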
